A study of Mus musculus with 6 samples.

Results

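The genes described here encode the insulin, IGF1 and mTOR signalling pathway, from the growth factors and their receptors to the kinases and the amino acid sensors that converge on mTOR. They were taken from a list of 37 genes, each represented by the array feature that names that gene alone, or by the one with the highest mean where a gene has several. Of the 37, 32 had such a feature, and each of these had exactly 1, among 14860 genes so represented on the array. Irs2, Akt2, Gsk3a, Rps6kb1 and Lamtor1 had none and were not analysed here. Expression was measured on 1-colour microarrays in the tibialis anterior, a fast-twitch muscle at the front of the shin, of 6 male mice aged 8 weeks. ATF4 mKO mice (n = 3) lack the transcription factor ATF4 in skeletal muscle, and littermate controls (n = 3), whose alleles the labels do not spell out, were compared with them. All 6 mice had fasted for 24 h, so no fed muscle was compared. For the strain, the promoter that drives the deletion and the deleted exons, the sources used here give no entry.

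Insulin and IGF1 bind receptor tyrosine kinases, which recruit IRS proteins and phosphoinositide 3-kinase and so activate AKT. AKT relieves the block that the TSC complex places on Rheb, and Rheb switches on mTORC1, the kinase complex that promotes protein synthesis and restrains autophagy. Amino acids act on the same complex through the Rag GTPases on the lysosome. In muscle this pathway favours growth when food is present and is damped in fasting. ATF4 is known to induce several of its brakes in stressed cells, among them Sesn2, Ddit4, Trib3 and Eif4ebp1.

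Values are log2 expression per array feature as deposited, and a fold change is the ATF4 mKO mean minus the control mean on that scale. The level of Atf4 itself was 8.65, 8.76 and 8.76 in control mice 1 to 3 and 6.73, 7.07 and 6.97 in ATF4 mKO mice 1 to 3. The groups lay far apart, with a log2 fold change of -1.80 ± 0.10 (SE, limma adjusted p = 0.00268); whether the feature covers the deleted exons is not known here. The muscle fibre markers Ckm, Acta1, Tnnt3, Mb and Pvalb were all high, with control means from 10.40 to 12.67, as the tissue label has it. Arrays correlated at 0.983 to 0.991 and their number limits the precision. In all, 2 features passed an adjusted p of 0.05 in limma, which is 0.0119% of the 16755 tested; they were Atf4 and Yars (log2 fold change -0.84), a tRNA synthetase gene. When any 1 mouse was left out, only Atf4 was still called.

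None of the 32 pathway genes passed that threshold, and none had an unadjusted p under 0.05 in limma, a level reached by 3.09% of all features. The smallest unadjusted p was 0.114, for Igfbp3, and the adjusted p was 1.0 for each of them. Mean levels in ATF4 mKO muscle ran from 87.4% of control for Igfbp3 to 108% for Rragd. In 19 genes the ATF4 mKO mean was below the control mean and in 13 above it, and 49.4% of all features lay below. The median log2 fold change was -0.010, against 0.0013 over all features. In no pathway gene were the groups free of overlap, while 7.78% of all features were. With 3 against 3 mice an exact permutation test of a single gene cannot give a two-sided p below 0.10, so the comparison rests on the limma fit and its intervals.

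**Figure D1:**
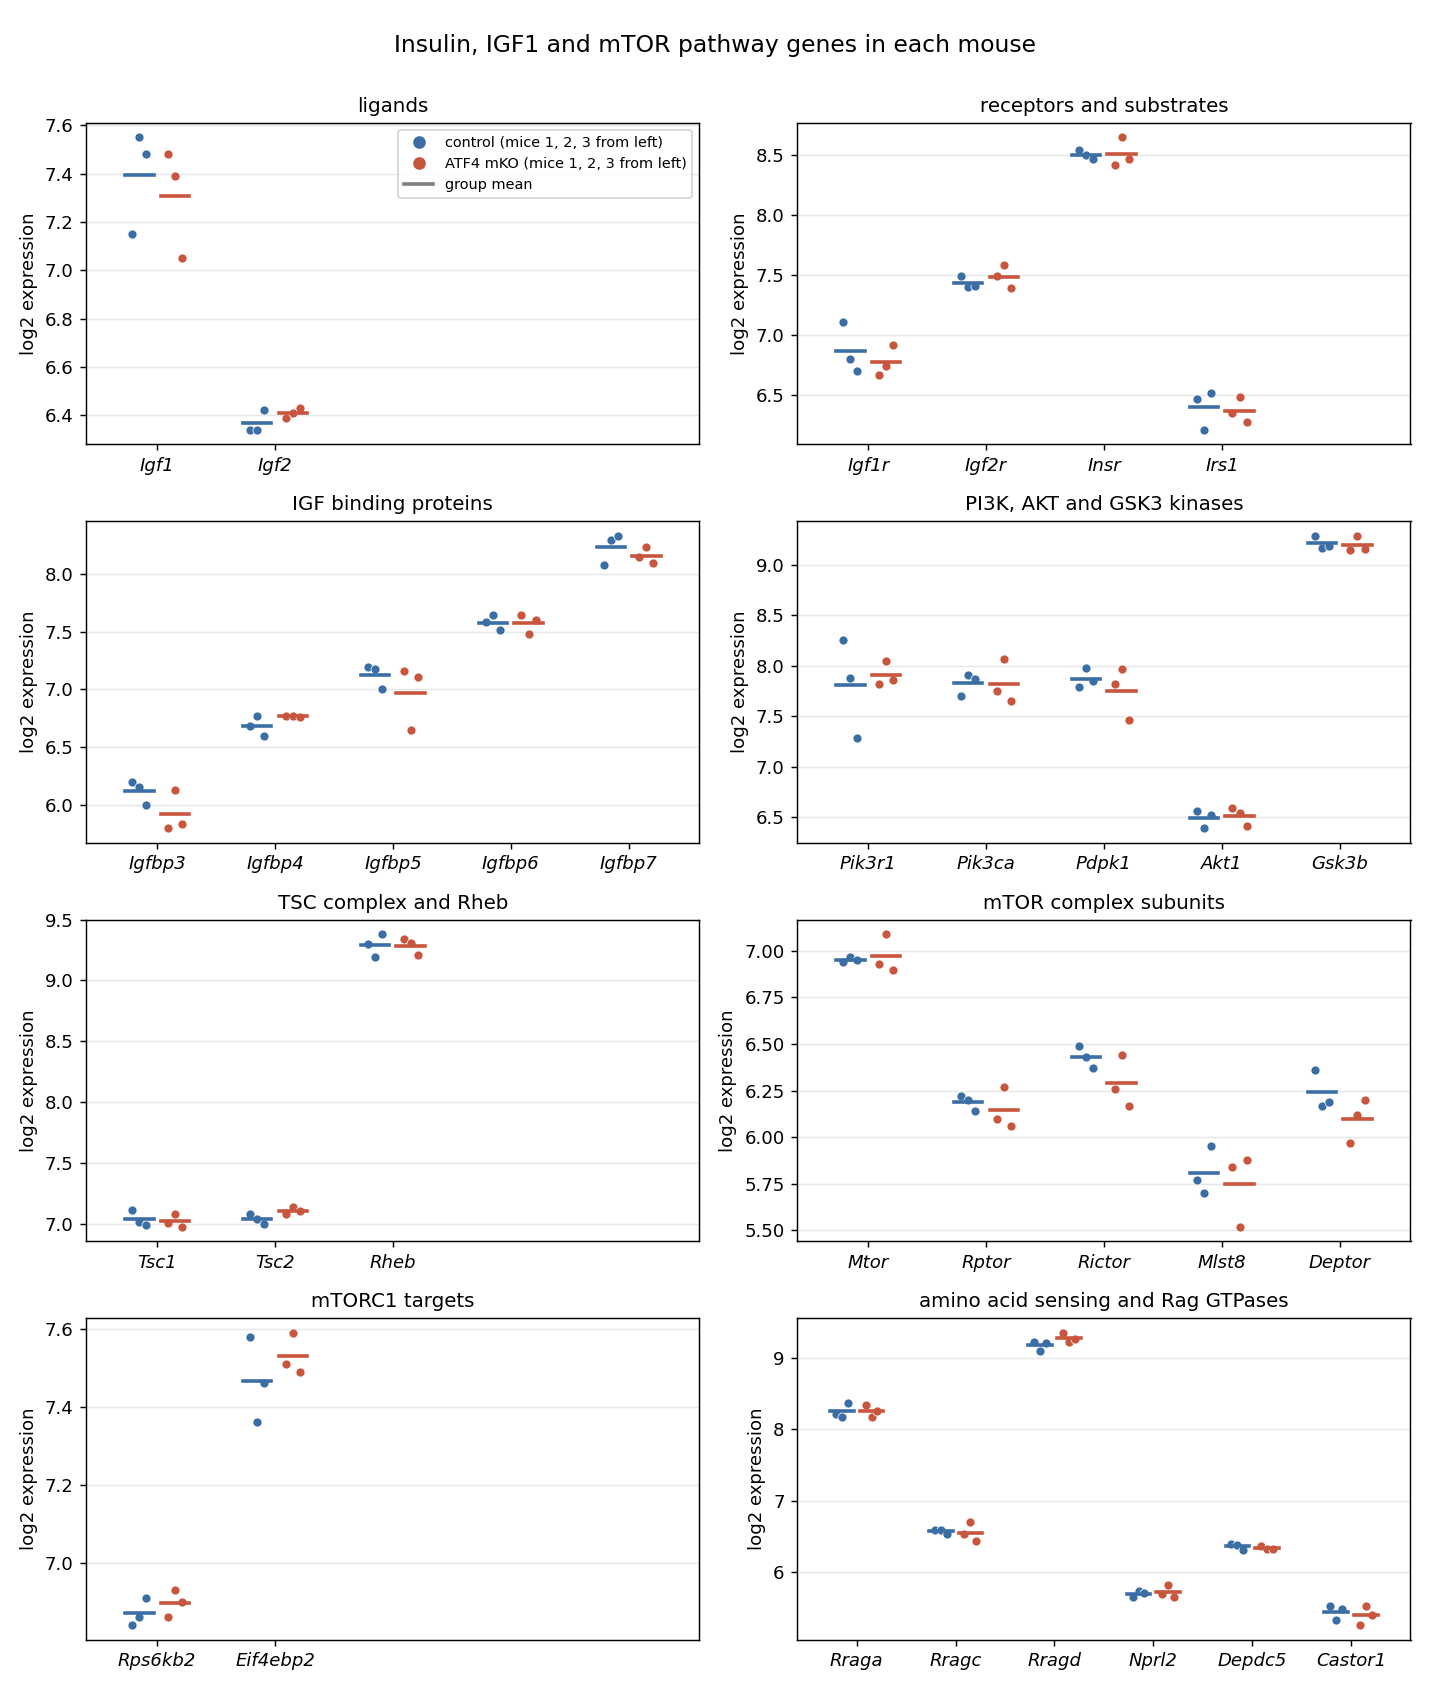
Log2 expression of the 32 measured pathway genes in each mouse, in 8 panels by role, with control mice in blue, ATF4 mKO mice in red and a bar at each group mean (n = 3 per group); each panel has its own vertical axis. The groups overlap in every gene, and the points of Pik3r1 in controls are spread the most, from 7.28 to 8.26.

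The intervals of these differences show how large a change in array signal the data still allow. The 95% limma interval lay within 0.5 of 0 on the log2 scale, that is between 70.7% and 141% of control, for 31 of the 32 genes, a share of 96.9% where 88.5% of all features had such an interval. The exception was Pik3r1. Within 0.25 of 0 lay the intervals of 16 genes, or 50.0%, against 29.2% of all features. These bounds were chosen after the values were seen. Of the 32 genes, 22 had a within-group SD below that of the median feature, and 3 had a mean level below the median. An interval is narrower where the SD is smaller, by construction. Features of like level and spread were not compared. A change in signal of Atf4's or Yars's size lies outside the interval of every measured pathway gene. Smaller changes, such as a loss of 10% of the signal, lie inside the intervals of 25 genes. Detection above background could not be called here. For features at low levels an interval therefore describes the signal and need not bound the change in mRNA.

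**Figure D2:**
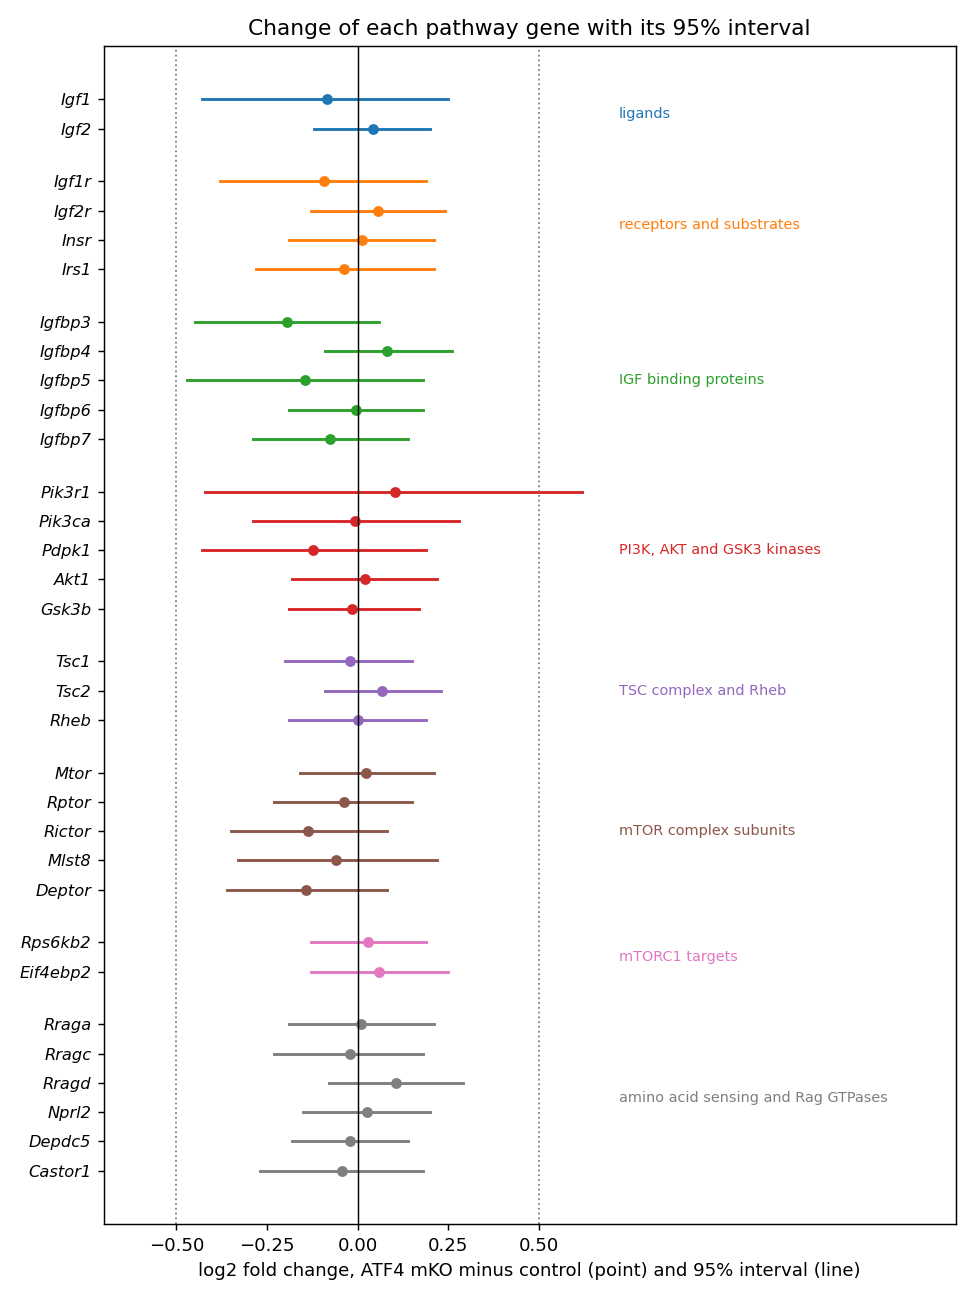
Log2 fold change (ATF4 mKO minus control) of each pathway gene as a point with its 95% limma interval as a line, coloured by role, with dotted lines at 0.5 above and below 0. Each interval crosses 0, and only that of Pik3r1, which reaches 0.62, passes a dotted line.

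The promoters of the pathway genes were searched for 2 short DNA elements, to show what stands at these starts in a study of ATF4 in fasting. The C/EBP-ATF response element, which ATF4 binds with C/EBP partners, was searched as TGATGNAA, and the element of the FoxO factors, which AKT holds out of the nucleus, as GTAAACA, both on either strand and counted separately; no promoter of a pathway gene held both. RefSeq (GRCm38.p6) gave 35 promoters of 300 bases for 29 of the 32 genes; Deptor, Insr and Rps6kb2 had none in the table. None of the 35 held TGATGNAA, which 3.97% of all 32851 promoters in the table hold. GTAAACA stood in 1 of the 35, an Akt1 promoter, or 2.86%, against 3.65% of all promoters. Among 99 promoters of 66 other genes of the pathway, 3 held TGATGNAA, those of Trib3, Pik3cd and Eef2k. GTAAACA stood in 6 of those 99 (6.06%), which belong to Igfals, Mapkap1 (both of its overlapping promoters, at the same site), Mdm2, Pik3cg and Sesn1. A match shows the letters only, not a bound site, and a window without one says nothing of the factor. The stretches below run from 200 bases before to 30 after the start, 5′ to 3′ on the gene's strand, which is the minus strand in all 4, with the matched letters in capitals. They show the Akt1 match, the matches in Trib3 and Pik3cd, and, with no match, the promoter of Igfbp3, the pathway gene with the smallest p.
Akt1, chr12:112674855-112675084: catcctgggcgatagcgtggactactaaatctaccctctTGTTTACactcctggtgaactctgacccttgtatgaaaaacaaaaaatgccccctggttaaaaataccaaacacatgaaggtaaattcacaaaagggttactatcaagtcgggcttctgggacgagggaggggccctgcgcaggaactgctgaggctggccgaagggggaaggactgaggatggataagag
Trib3, chr2:152344031-152344260: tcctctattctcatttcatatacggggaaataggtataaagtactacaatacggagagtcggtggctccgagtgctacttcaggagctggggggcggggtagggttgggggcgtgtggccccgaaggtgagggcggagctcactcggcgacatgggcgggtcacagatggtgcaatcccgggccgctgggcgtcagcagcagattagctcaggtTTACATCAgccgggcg
Pik3cd, chr4:149698679-149698908: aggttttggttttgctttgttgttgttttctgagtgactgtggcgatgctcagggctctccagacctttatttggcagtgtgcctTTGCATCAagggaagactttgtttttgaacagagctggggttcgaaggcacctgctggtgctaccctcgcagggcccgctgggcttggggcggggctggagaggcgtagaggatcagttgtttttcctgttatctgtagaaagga
Igfbp3, chr11:7213894-7214123: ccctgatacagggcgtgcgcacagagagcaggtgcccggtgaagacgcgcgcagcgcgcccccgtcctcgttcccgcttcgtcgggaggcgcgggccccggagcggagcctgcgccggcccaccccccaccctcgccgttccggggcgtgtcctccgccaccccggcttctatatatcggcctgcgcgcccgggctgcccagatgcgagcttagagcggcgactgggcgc

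Both ligands were measured. Igf1, the growth factor that muscle and other tissues secrete, stood at 7.15, 7.55 and 7.48 in control mice 1 to 3 and at 7.48, 7.39 and 7.05 in ATF4 mKO mice 1 to 3. The groups overlapped, with control mouse 1 and ATF4 mKO mouse 3 low in their groups. The log2 fold change was -0.09 with a 95% interval of -0.43 to 0.25, so the mean was 94.3% of control. In bulk muscle, fewer cells that make an mRNA and less of it per cell cannot be told apart, which holds for Igf1 and for the binding proteins below. Igf2, a fetal growth factor related to IGF1, ranged only from 6.34 to 6.43 over all 6 mice. Its log2 fold change of 0.04 had the narrowest interval of the 32 genes, -0.12 to 0.20.

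Among the receptors and their substrates, 2 of the 4 measured genes lay below control and 2 above, with a median log2 fold change of -0.012. Insr, the insulin receptor gene, was at 8.54, 8.5 and 8.47 in controls and at 8.42, 8.65 and 8.47 in ATF4 mKO mice. The ATF4 mKO values fell on both sides of the controls, and the mean stood at 101% of control (95% interval 87.9% to 116%). Igf1r, the receptor through which IGF1 acts, was at 7.11, 6.80 and 6.70 in controls against 6.67, 6.74 and 6.92. Control mouse 1 was the highest and the rest overlapped; the log2 fold change was -0.09 ± 0.12 (SE). Irs1, an adaptor that links the receptors to phosphoinositide 3-kinase, was at 6.47, 6.21 and 6.52 in controls and at 6.35, 6.48 and 6.27 in ATF4 mKO mice. All ATF4 mKO values lay inside the control range, at 97.5% of control on average (82.4% to 115%). Igf2r, which clears IGF2 from the cell surface, read 7.49, 7.40 and 7.41 in controls and 7.49, 7.58 and 7.39 in ATF4 mKO mice, and the groups overlapped. Its log2 fold change was 0.06 ± 0.08 (SE).

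The 5 IGF binding proteins, secreted carriers that hold IGFs outside the cell, had a median log2 fold change of -0.077, with 4 genes below control and 1 above. Igfbp3, the main carrier of IGFs in blood, was at 6.20, 6.16 and 6.0 in controls and at 5.80, 6.13 and 5.84 in ATF4 mKO mice. ATF4 mKO mice 1 and 3 lay below every control, while mouse 2 lay within the control range. The log2 fold change was -0.19 ± 0.11 (SE), with an interval of -0.45 to 0.06. Without ATF4 mKO mouse 2, the highest of its group here, it was -0.30 (limma unadjusted p = 0.0171), and no pathway gene passed the adjusted threshold in that fit either. Without any other single mouse the unadjusted p for Igfbp3 in limma was 0.0708 to 0.315. Igfbp5, a binding protein made by muscle itself, was at 7.19, 7.18 and 7.0 in controls and at 7.16, 6.65 and 7.11 in ATF4 mKO mice. Here ATF4 mKO mouse 2 alone was low and the other two overlapped with the controls, and the log2 fold change of -0.15 ± 0.14 (SE) ran from -0.24 to 0.02 over the alternatives. Igfbp4, which lowers IGF availability until it is cleaved, was at 6.68, 6.77 and 6.60 in controls and at 6.77, 6.77 and 6.76 in ATF4 mKO mice. The ATF4 mKO mice stood level with the highest control, a log2 fold change of 0.08 ± 0.08 (SE). Igfbp7, a related protein found in vessel walls, was at 8.08, 8.29 and 8.33 in controls and at 8.15, 8.23 and 8.09 in ATF4 mKO mice. All of the latter lay within the control range, and the log2 fold change was -0.08 ± 0.09 (SE). Igfbp6, a binding protein that prefers IGF2, stood at 99.7% of control.

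Several binding proteins are made mostly by vessel and connective tissue cells, so markers of those cells were set beside them. The mean over 8 endothelial markers was 6.75 to 6.85 in controls and 6.79 to 6.91 in ATF4 mKO mice. Of the 8, 5 lay above control and 3 below. Tie1 (log2 fold change 0.17) had an unadjusted p of 0.0389 in limma, while Emcn and Esam had -0.10 each and Pecam1 -0.02. The mean over 7 fibroblast markers was 8.03 to 8.20 in controls and 8.04 to 8.25 in ATF4 mKO mice, with 5 markers above control. For 6 smooth muscle and pericyte markers it was 7.15 to 7.44 and 7.35 to 7.41, with 4 markers above control and 2 below. Among them Cnn1 (log2 fold change 0.35) had an unadjusted p of 0.0155 in limma, while Rgs5 had -0.07 and Tagln -0.04. The 5 measured macrophage markers were all above control in mean, with list means of 5.88 to 6.19 and 6.11 to 6.24. The 5 muscle fibre markers were all above control in mean, with log2 fold changes from 0.00 to 0.12. They averaged 11.57 to 11.60 in controls and 11.61 to 11.67 in ATF4 mKO mice, so every ATF4 mKO mouse lay above every control in this list mean. Median log2 fold changes of the other marker lists were -0.064 for adipocytes, -0.0074 for Schwann cells, 0.0091 for satellite cells, 0.045 for tendon and 0.26 for erythroid cells, the last resting on 2 genes with control mouse 3 low. None of these markers passed the adjusted threshold. Of the 46 measured, the groups did not overlap in 3 smooth muscle and pericyte, 2 endothelial, 1 macrophage and 1 erythroid marker. In each of these the ATF4 mKO mice lay above the controls, and no marker of the other lists was free of overlap. Over all features the share without overlap was 7.78%, and 3.09% had an unadjusted p under 0.05 in limma. Of the markers, Tie1 and Cnn1 alone reached that p. The part of these cells in the levels of the binding proteins was not tested.

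From phosphoinositide 3-kinase to GSK3, 5 of 7 listed genes were measured, and their median log2 fold change was -0.0061. Pik3r1, which encodes regulatory subunits of phosphoinositide 3-kinase, was the least certain gene of the pathway. It stood at 8.26, 7.88 and 7.28 in control mice 1 to 3, a range of 0.99, and at 7.82, 8.05 and 7.86 in ATF4 mKO mice. The 3 ATF4 mKO values lay inside the control range. Its log2 fold change was 0.10 with an interval of -0.42 to 0.62, and it moved to -0.16 without control mouse 3 and to 0.33 without control mouse 1. Pdpk1, the kinase that phosphorylates AKT in its activation loop, was at 7.79, 7.98 and 7.85 in controls and at 7.82, 7.97 and 7.46 in ATF4 mKO mice. ATF4 mKO mouse 3 alone was low, and the log2 fold change was -0.12 ± 0.13 (SE). The catalytic subunit gene Pik3ca, at 99.6% of control, ranged from 7.65 in ATF4 mKO mouse 3 to 8.07 in ATF4 mKO mouse 2. Akt1, whose promoter is shown above, was at 101% of control (88.4% to 116%), and Gsk3b, a kinase that AKT inhibits, at 99.0% (87.4% to 112%).

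The TSC complex and Rheb gave some of the tightest values. Tsc2, the subunit that switches Rheb off, was at 7.08, 7.04 and 7.0 in controls and at 7.08, 7.14 and 7.11 in ATF4 mKO mice. The groups touched at 7.08, and the log2 fold change was 0.07 ± 0.07 (SE), with an interval of -0.09 to 0.23. It ran from 0.05 to 0.09 over the 15 alternatives, several of which leave a fold change as it is by construction. Tsc1, the partner of Tsc2, stood at 98.5% of control (87.3% to 111%). Rheb, the GTPase that activates mTORC1, had means of 9.29 ± 0.09 (SD, n = 3) and 9.29 ± 0.07 (SD, n = 3), with an interval of -0.19 to 0.19.

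The 5 genes for subunits of the mTOR complexes had a median log2 fold change of -0.059, with 4 below control and 1 above. Mtor, the kinase itself, was at 6.94, 6.97 and 6.95 in controls and at 6.93, 7.09 and 6.90 in ATF4 mKO mice. The ATF4 mKO values spread around the 3 close controls, and the mean was 102% of control (89.5% to 115%). Rictor, which defines mTORC2, was at 6.49, 6.43 and 6.37 in controls and at 6.26, 6.44 and 6.17 in ATF4 mKO mice. As for Igfbp3, ATF4 mKO mice 1 and 3 lay below every control and mouse 2 did not. The log2 fold change was -0.14 ± 0.09 (SE), and -0.21 without ATF4 mKO mouse 2 (limma unadjusted p = 0.0463). That mouse was the highest of its group here, so leaving it out lowers the group mean by construction. Without any other single mouse the unadjusted p for Rictor in limma was 0.154 to 0.45. Deptor, an inhibitor of both complexes, was at 6.36, 6.17 and 6.19 in controls and at 5.97, 6.12 and 6.20 in ATF4 mKO mice. ATF4 mKO mouse 3 lay above 2 of the 3 controls, and the log2 fold change of -0.14 ± 0.09 (SE) ran from -0.21 to -0.08 over the alternatives. Rptor, which defines mTORC1, stood at 97.4% of control (85.2% to 111%). Mlst8, a subunit of both complexes, stood at 96.0% (79.3% to 116%), and its mean lay below the median of all features.

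Of the mTORC1 targets, Eif4ebp2, a repressor of cap-dependent translation that mTORC1 inactivates, was at 7.58, 7.36 and 7.46 in controls and at 7.51, 7.59 and 7.49 in ATF4 mKO mice. The groups overlapped, with a log2 fold change of 0.06 ± 0.08 (SE). Rps6kb2, an S6 kinase gene, stayed between 6.84 and 6.93 in all 6 mice and stood at 102% of control (91.3% to 114%).

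The 6 measured genes of the amino acid branch had a median log2 fold change of -0.0058. Rragd, a Rag GTPase gene, was at 9.22, 9.09 and 9.20 in controls and at 9.35, 9.22 and 9.26 in ATF4 mKO mice. The ATF4 mKO mice stood at or above the highest control at this rounding but the groups still overlapped. The log2 fold change of 0.10 ± 0.08 (SE) had an interval of -0.08 to 0.29. It ran from 0.06 to 0.14 over the 15 alternatives, several of which leave it as it is by construction. The related genes Rraga and Rragc stood at 101% (87.6% to 115%) and 98.5% (85.4% to 114%) of control. Castor1, the cytosolic arginine sensor, was at 5.52, 5.33 and 5.48 in controls and at 5.26, 5.53 and 5.40 in ATF4 mKO mice. The groups overlapped throughout, at 97.0% of control on average (83.0% to 113%). Nprl2 and Depdc5, subunits of the GATOR1 complex that turns the Rag GTPases off, stood at 102% (89.9% to 115%) and 98.6% (88.2% to 110%). The means of Castor1 and Nprl2, like that of Mlst8, lay below the median of all features, and the other 29 pathway genes lay above it.

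The genes of the pathway outside the list were described in the same way. Of 92 such genes, 74 had a feature of their own, and the median log2 fold change of these was 0.011. By role, medians ran from -0.044 for further mTOR targets to 0.038 for further genes of phosphoinositide 3-kinase and AKT. None passed the adjusted threshold. Of the 74, 33 lay below control and 41 above, and 1 (1.35%) had an unadjusted p under 0.05, where 3.09% of all features did. This was Pik3cg, a phosphoinositide 3-kinase subunit of white blood cells, at 4.89, 4.84 and 4.58 in controls and 5.03, 4.91 and 5.26 in ATF4 mKO mice. Every ATF4 mKO mouse lay above every control, with a log2 fold change of 0.30 ± 0.12 (SE, limma unadjusted p = 0.0388), at a level in the lowest 22.4% of features. It stands beside the macrophage markers given above, whose part in it was not tested. The groups did not overlap in 3 of the 74 genes, or 4.05% against 7.78% of all features. The other two were Sec13, a GATOR2 subunit, and Itfg2, a member of the KICSTOR complex that was singled out after its values were seen. Sec13 read 8.10, 8.10 and 8.16 in controls and 8.04, 8.00 and 7.86 in ATF4 mKO mice, a log2 fold change of -0.15 ± 0.08 (SE). For Itfg2 the log2 fold change was 0.08 ± 0.07 (SE).

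Of the other genes with the smallest p in that wider set, Castor2, a relative of Castor1, had -0.28 ± 0.15 (SE) at its brighter feature, but -0.03 at its other feature. Ghr, the growth hormone receptor, had a log2 fold change of 0.15 ± 0.09 (SE), and the transcription factor gene Foxo1 had 0.13 ± 0.09 (SE). Sh2b2, an adaptor of the insulin receptor, had 0.13 and Pik3r2, another regulatory subunit of phosphoinositide 3-kinase, 0.11. Tfeb, the lysosomal transcription factor that mTORC1 restrains, had -0.10, and Ulk1, the autophagy kinase, 0.10. Slc3a2, the heavy chain of an amino acid transporter, had -0.09. None of these had an unadjusted p under 0.05 in limma. Socs3, a brake on cytokine and insulin receptors, was measured by a pair of features with opposite signs, 0.14 for the brighter one and -0.39 for the other. Their 95% intervals were -0.24 to 0.53 and -0.79 to 0.02. The dimmer feature read 4.19, 4.95 and 4.70 in controls and 4.21, 4.20 and 4.27 in ATF4 mKO mice, so control mouse 1 stood level with the ATF4 mKO mice.

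**Figure D3:**
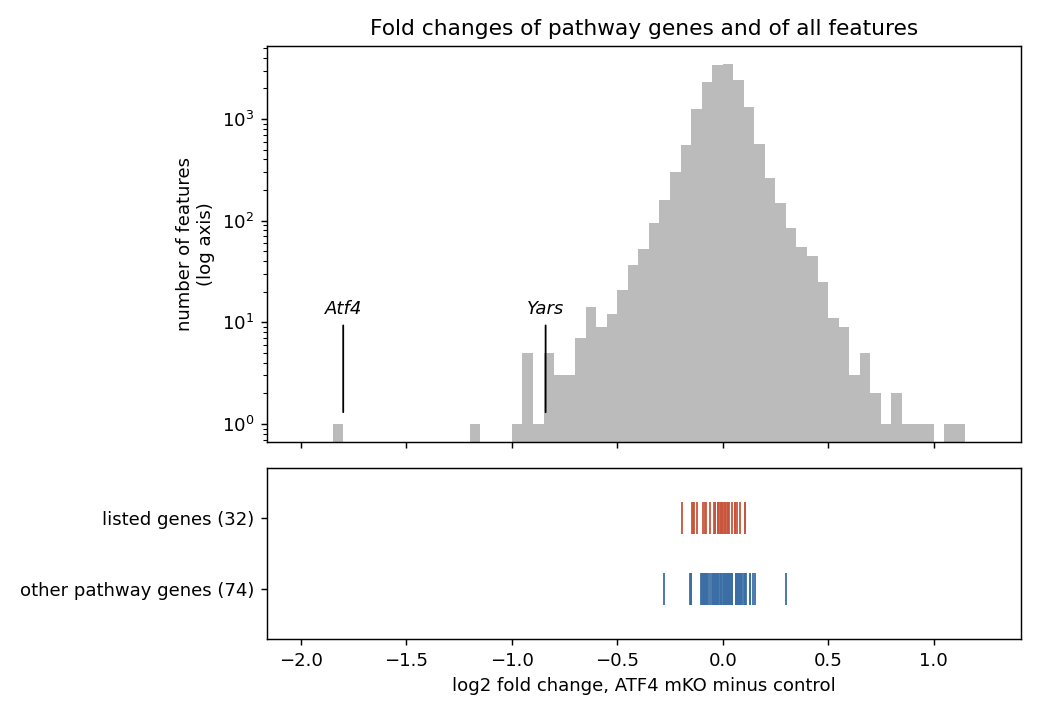
The upper panel counts all 16755 features by log2 fold change (ATF4 mKO minus control, bins of 0.05, logarithmic count axis), with Atf4 and Yars marked. Below, each tick is a gene: the 32 listed pathway genes run from -0.19 to 0.10 and the 74 other pathway genes from -0.28 to 0.30.

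The stress-induced brakes that ATF4 is known for were looked at in turn, having been singled out for that role. Sesn2, a leucine sensor that inhibits mTORC1, stood at 4.78, 4.78 and 4.81 in controls and at 4.73, 4.83 and 4.76 in ATF4 mKO mice. The groups overlapped, with a log2 fold change of -0.01 and an interval of -0.17 to 0.15, at a level in the lowest 19.8% of features. Ddit4, an inhibitor of mTORC1 that glucocorticoids also induce, was at 7.01, 7.09 and 6.88 in controls and at 7.0, 7.47 and 6.64 in ATF4 mKO mice. ATF4 mKO mouse 2 was the highest of the 6 and mouse 3 the lowest, so the interval was wide, at -0.40 to 0.48. Trib3, a pseudokinase that binds AKT and whose promoter match is shown above, was at 6.08, 6.18 and 5.93 in controls and at 6.12, 5.95 and 6.22 in ATF4 mKO mice. The groups overlapped, with a log2 fold change of 0.03 and an interval of -0.20 to 0.26. The other promoters with TGATGNAA belong to Pik3cd, with a log2 fold change of 0.07 ± 0.09 (SE), and Eef2k, with 0.11 ± 0.09 (SE). Sesn1, a sestrin that FoxO factors and p53 induce, was at 8.84, 8.79 and 8.48 in controls and at 8.42, 9.02 and 8.22 in ATF4 mKO mice. ATF4 mKO mice 1 and 3 lay below every control and mouse 2 above every control, with a log2 fold change of -0.15 and an interval of -0.62 to 0.32. Eif4ebp1 had no feature of its own and was not analysed here.

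Single mice also differed from one another over the 32 genes, in both groups. ATF4 mKO mouse 2 had the highest value of the 6 mice in 12 of the 32 genes (37.5%), against 22.1% of all features above the median level. Mouse 3 of that group had the lowest value in 10 genes (31.2%), close to the 24.6% of those features. Control mouse 1 had the highest value in 8 of the 32 genes and the lowest in 2 (6.25%), against 17.1% and 15.5% of those features. The median deviation of the 32 genes from their mean over 6 mice was 0.056 in ATF4 mKO mouse 2 and -0.039 in ATF4 mKO mouse 3, and between -0.016 and 0.031 in the other 4 mice. The spread of the arrays differed in the same mice, with interquartile ranges of 1.88 in ATF4 mKO mouse 2, 1.73 in ATF4 mKO mouse 3 and 1.77 to 1.83 in the others. After quantile normalisation, which gives all arrays 1 distribution, the median deviations of the 2 mice were 0.023 and -0.025, little beyond the -0.019 to 0.017 of the other 4. The count of genes above their mean went from 24 to 22 in ATF4 mKO mouse 2 and from 12 to 15 in ATF4 mKO mouse 3. In control mouse 1 it stayed at 20, and in the others it was 14 or 15 before and 14 to 16 after. The part of array spread in the differences between mice was not tested.

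**Figure D4:**
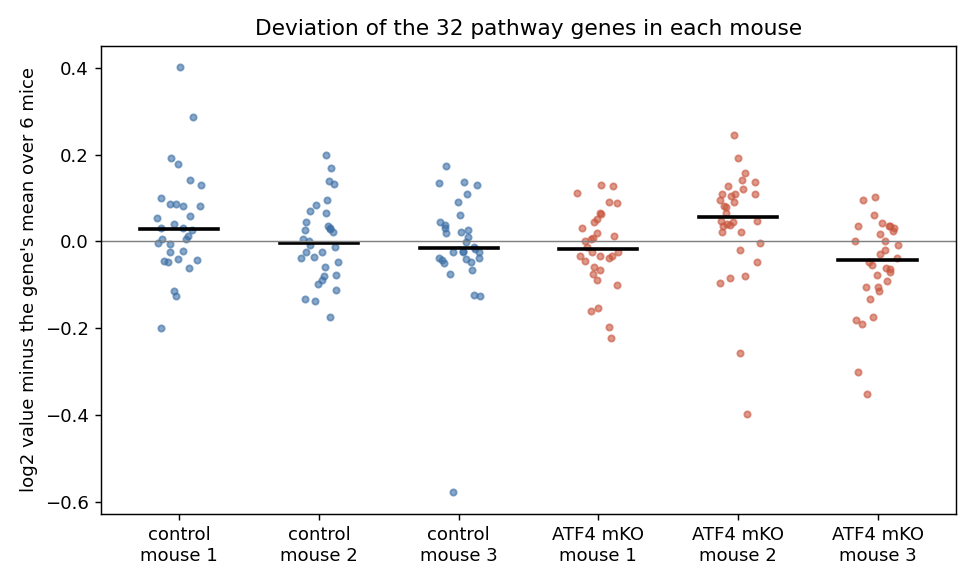
Deviation of each of the 32 pathway genes from its own mean over the 6 mice (log2 scale), by mouse, with a black bar at the median of the genes. ATF4 mKO mouse 2 lies highest, with a median of 0.056, and ATF4 mKO mouse 3 lowest, with -0.039, within the same genotype.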

How the data were processed

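The deposited table gives a log2 value for each feature in each mouse; the log2 scale was read from the values (1.63 to 13.0, none missing). RMA, GCOS and build mm9 are named in the submitters' processing notes, with no versions. Per the labels' protocols, 50 ng of total RNA was amplified to cDNA and biotin-labelled. Features were named from the platform annotation, with symbols updated through RefSeq (GRCm38.p6, names and promoters only); of 16755 features, 14996 had 1 symbol, 1019 several and 740 none.

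All features were fitted with limma 3.58.1 (R 4.3.3; lmFit and eBayes, group as the only term) and adjusted by Benjamini-Hochberg. Errors are moderated standard errors, and percentages are back-transformed log2 differences. The genes, roles, wider pathway list (92 genes) and 10 marker lists were chosen with earlier results of these data known. Of the listed genes, values per mouse were given for the 12 with the smallest p, for Igf1, Insr, Irs1, Mtor, Deptor and Castor1, chosen by role (Irs2, also chosen, was not measured), and for Pik3r1, singled out for its spread after the values were seen; of the wider list the 10 with the smallest p were named. The code of the fit was tested on simulated normal values with added changes larger than that of any listed gene. Changes as small as theirs were not simulated. Mice are separate animals. Alternatives were a replicate block, quantile normalisation, median centring, 2 filters on low features, features with 1 symbol, trended robust or no moderation, array weights and leaving out each mouse.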

Additional observations from a re-analysis of the deposited data

How the results depend on the processing

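No listed pathway gene passed the adjusted threshold under any of the 15 alternative fits or at an adjusted p under 0.10. Fold changes had another sign in 40 of 477 gene-by-alternative values, spread over 20 genes, none of which had a direction called. The other 12 genes kept 1 sign throughout. The replicate block, the filters on low features, the restriction to features with 1 symbol and the changes of moderation leave a fold change as it is. Their values among the 477 could not change sign, by construction. The number of genes at an unadjusted p under 0.05 in limma, 0 with all mice, was 1 with array weights (Igfbp3) and 0 to 2 without 1 mouse, the 2 being Igfbp3 and Rictor when ATF4 mKO mouse 2 is left out. The share of all features at that p in each alternative fit is not given here. These counts, and those of the wider list below, therefore have no background to be read against. The median log2 fold change of the 32 genes ran from -0.029 to 0.025 without 1 mouse. By role, these medians without 1 mouse ran from -0.112 to 0.016 for the IGF binding proteins (highest without ATF4 mKO mouse 2), from -0.113 to -0.062 for the mTOR complex subunits (-0.113 without control mouse 2 and -0.102 on leaving out ATF4 mKO mouse 2) and from -0.033 to 0.045 for the TSC complex and Rheb (0.045 without control mouse 3). They ran from -0.089 to 0.038 for the ligands, from -0.068 to 0.028 for receptors and substrates, from -0.058 to 0.074 for the kinases from phosphoinositide 3-kinase to GSK3, from 0.015 to 0.066 for mTORC1 targets and from -0.019 to 0.026 for the amino acid branch. In the wider list the 1 gene at an unadjusted p under 0.05 became 0 without the lowest 33.3% of features and 0 without the lower 50%, since Pik3cg lies below both filters, and 0 to 3 without 1 mouse (0 lacking ATF4 mKO mouse 3, 2 lacking ATF4 mKO mouse 2 and 3 lacking control mouse 3). The filters drop low features by construction; the other causes were not tested. Atf4 had -1.80 without moderation, with an adjusted p of 0.192 (range over the alternatives 0.000378 to 0.192), and -1.88 to -1.71 without 1 mouse. Same-numbered mice had correlations of their deviations from the group means of 0.00, 0.07 and 0.14, and not every mouse correlated best with its own number, so the numbers were not taken as pairs. A replicate block on the mouse number took the calls over all features from 2 to 1 and left the count of pathway genes past the adjusted threshold at 0, their median at -0.010 and Atf4 past it (adjusted p = 0.019). Every listed gene had 1 feature, so averaging features changed nothing.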
